A study of Mus musculus with 8 samples.

Results

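The nuclear-encoded subunits of the mitochondrial respiratory chain and ATP synthase were followed in tumor-associated macrophages (TAMs) after thiostrepton treatment. Members were taken by gene symbol, from the names that mark subunits of complexes I to V. Of 85 symbols that matched among 23413, 80 had 80 or more counts summed over the 8 mice. Complex I gave 36 members, complex II 4, complex III 8, complex IV 15 and complex V 15. The last 2 members, Atp5s and Atp5sl, carry the ATP synthase prefix but are not subunits of it. The 5 symbols left out were tissue-restricted isoforms. Cox7b2 and Cox8c had 0 counts, Cox8b had 1, Ndufa4l2 had 6 and Cox6b2 had 53.

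TAMs came from B16F10 tumors, a melanoma line of C57BL/6 origin grown under the skin of male B6 mice aged 8 to 10 weeks. Thiostrepton, a thiopeptide antibiotic, was given on days 6 and 12 either by intraperitoneal injection (I.P., 4 mice) or subcutaneously beside the tumor at 20 mg/kg (S.C., 2 mice, labelled IS). DMSO, the solvent, was given to 2 mice. On day 18 cells that were CD45+F4/80+CD11b+Gr-1- were sorted and sequenced, with 1 library per mouse. No genetic change separates the groups, and all 8 tumors come from the same transplanted line. The paper used different I.P. doses in this tumor model. Which of them each of these I.P. mice received, and the route of DMSO, were not given in the sources used here. The paper describes the S.C. dose as the lower one, so route and dose cannot be told apart in S.C. against I.P.

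Most subunits of these enzymes are encoded in the nucleus, made in the cytosol and imported. Complexes I and II pass electrons from NADH and succinate to coenzyme Q, complex III passes them to cytochrome c, and complex IV passes them to oxygen. The proton gradient that complexes I, III and IV build drives ATP synthase, complex V. In macrophages this machinery is known to run at high capacity after alternative activation, whereas inflammatory activation shifts cells to glycolysis. Some complex IV subunits exist as a common isoform and as an isoform best known from heart, skeletal muscle or lung.

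Libraries held 14127506 to 17577466 counts, and 12766 to 14622 genes had at least 1 count. The members held 1.14% to 1.69% of all counts. All 12 macrophage markers examined were expressed, with a summed level of 34180 to 72828 CPM (counts scaled to a common library size). Apoe and Lyz2 were the largest parts of that sum in every mouse, and Apoe alone was 37843 CPM in I.P. 1. Emr1 was lowest in I.P. 1 and S.C. 1, at 316 and 353 CPM, beside 588 to 1012 CPM in the other mice. Csf1r was lowest in the same mice, at 500 and 346 CPM, beside 637 to 1119 CPM. I.P. 1 had the highest sum, so the sum does not stand for every marker. Markers of other cell types varied among mice, and their part in the results was not tested. A list of 9 neutrophil genes summed to 66.9 and 72.3 CPM in DMSO mice, 52.8 to 60.6 CPM in I.P. mice, and 92.7 and 378 CPM in S.C. mice. Mmp8 was most of that sum in DMSO mice, at 60.7 and 58.8 CPM, beside 24.0 to 49.6 and 61.5 and 119 CPM. S100a8 went another way, at 2.32 and 6.18, then 21.0, 2.32, 7.96 and 1.68, then 6.33 and 64.2 CPM. A list of 9 melanoma genes summed to 2298 and 2424 CPM, 2964 to 9546 CPM, and 6228 and 8969 CPM in the same order. Most of that sum was Gpnmb, which macrophages also express, at 1797 and 1587 CPM, 2483 to 7737 CPM, and 3227 and 8221 CPM. The other 8 genes summed to 627 and 711 CPM, 481 to 1809 CPM, and 3001 and 747 CPM, so the I.P. mice lay on both sides of the DMSO mice and S.C. 1 was the highest. A list of 6 red cell genes summed to 81.1 and 400 CPM, 2.76 to 89.4 CPM, and 568 and 54.9 CPM. Lists for T and NK cells, B cells and stromal cells summed to at most 38.0, 29.2 and 9.66 CPM in any mouse. In bulk libraries fewer cells of a type and less RNA per cell cannot be told apart.

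Levels between genes were compared per kilobase of transcript, as CPM per kb averaged over the 8 mice. Atp5b, the catalytic beta subunit of ATP synthase, stood highest at 726 CPM per kb. It was followed by Cox4i1, the common form of complex IV subunit 4 (571 CPM per kb), the complex III subunit Uqcr11 (561), Cox6a1 (505) and Uqcrb (495). The lowest members were Cox4i2 at 1.68 CPM per kb, Atp5sl at 4.77, Atp5s at 8.74, Cox6a2 at 11.1 and Cox7a1 at 14.4. The 3 lowest subunits were thus tissue-restricted isoforms of complex IV. Without the length correction, the range in complex I ran from 30.6 CPM for Ndufs5 to 437 CPM for Ndufb8, in complex II from 118 CPM for Sdhc to 408 CPM for Sdha, and in complex III from 78.2 CPM for Uqcrh to 502 CPM for Uqcrc1. In complex IV it ran from 1.22 CPM for Cox4i2 to 431 CPM for Cox4i1, and in complex V from 41.4 CPM for Atp5k to 1390 CPM for Atp5b.

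To ask whether I.P. thiostrepton altered the respiratory chain genes, the 4 I.P. mice were compared with the 2 DMSO mice. Cox6a2 was higher, and no other member passed an unadjusted P of 0.05. That is 1 of 80 members, against 3.43% of the 12174 genes tested (edgeR's quasi-likelihood test, two-sided). After Benjamini-Hochberg adjustment edgeR called 0 members and 0% of genes at 0.05, whereas DESeq2 called 1 member, Cox6a2, among 19 genes. The median log2 fold change of the members was -0.01, with 37 higher and 43 lower, beside 0.02 for all genes tested. The members kept close to 0, as 78 of 80 lay within 0.5 on the log2 scale, compared with 9072 of 12174 genes. The 95% interval of the fold change lay inside a 2-fold change in either direction for 72 of the 80 members, compared with 5067 of 12174 genes. Members were also measured more precisely, with a median SE of 0.27 beside 0.35 for all genes tested.

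Cox6a2 encodes the striated muscle isoform of complex IV subunit 6A. Its level was 1.63 and 2.77 CPM in the DMSO mice and 22.4, 6.42, 6.61 and 15.7 CPM in the 4 I.P. mice. All 4 I.P. mice were above both DMSO mice, with I.P. 1 and I.P. 4 the highest. The S.C. mice had 3.03 and 1.73 CPM and overlapped the DMSO mice. The raw counts behind these levels were 24 and 48 in DMSO mice, 355, 105, 118 and 262 in I.P. mice, and 46 and 24 in S.C. mice. The log2 fold change of I.P. against DMSO was 2.52 (SE 0.64), a 5.73-fold higher level, and it passed the unadjusted threshold with an adjusted p = 0.980 by edgeR. Its 95% interval ran from 1.05 to 3.98. DESeq2 gave 2.53 with an adjusted p = 0.0339. S.C. against I.P., the log2 fold change was -2.39 (SE 0.74, edgeR adjusted p = 0.399), and all S.C. mice were below all I.P. mice. Without S.C. 2 it was -2.04 and narrowly missed the unadjusted threshold. S.C. against DMSO it was 0.11 with a 95% interval of -2.28 to 2.51, too wide to show whether S.C. and DMSO mice were alike.

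Cox6a2 lies on chromosome 7 at chr7:128205435-128206387 (mm10, minus strand), inside the span of Itgad, an integrin gene of the opposite strand. Whether the counting used strand was not given in the sources used here. Itgad itself had 0 to 17 counts per mouse, below the count of Cox6a2 in every mouse. The nearest integrin gene on the other side of Itgad is Itgax, which encodes CD11c. It had 342 and 229 counts in DMSO mice, 325 to 538 in I.P. mice and 1069 and 1711 in S.C. mice, with its highest values in S.C. mice. On the other side of Cox6a2 the nearer gene was 9130023H24Rik, on the same strand as Cox6a2. It had 4.56 and 3.93 CPM in DMSO mice and 0.857 and 11.3 CPM in S.C. mice. Its I.P. values were 3.48, 2.02, 4.31 and 8.88 CPM, on both sides of the DMSO values, unlike those of Cox6a2. Beyond it lies Armc5, an armadillo repeat gene. Armc5 had 11.5 and 22.6 CPM in DMSO mice and 6.85 and 25.4 CPM in S.C. mice. Its I.P. values were 30.1, 23.2, 25.4 and 25.3 CPM, the lowest close to the 22.6 CPM of DMSO 2. The I.P. mice of Armc5 were thus all above the DMSO mice, as those of Cox6a2 were, with I.P. 1 the highest, while S.C. 2 was level with them. The I.P. and DMSO groups did not overlap for 14.2% of all genes tested. The part of these neighbors in the values of Cox6a2 was not tested. Of 11 other striated muscle genes examined, 5 had 0 counts and 9 had fewer than 80 counts over the 8 mice. Their summed level was 1.79 and 1.84 CPM in DMSO mice, 1.52 to 2.97 CPM in I.P. mice, and 1.19 and 1.81 CPM in S.C. mice. A list of 4 brown fat genes summed to at most 4.26 CPM.

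Cox6a1, the common isoform of the same subunit, showed no such difference. It had 274 and 310 CPM in DMSO mice, 372, 254, 322 and 239 CPM in I.P. mice, and 290 and 244 CPM in S.C. mice, and the 3 groups overlapped. Its log2 fold change of I.P. against DMSO was 0.02, with a 95% interval of -0.56 to 0.60. Per kilobase, Cox6a1 exceeded Cox6a2 by 199-fold and 133-fold in the DMSO mice and by 18.1-fold to 58.0-fold in the I.P. mice. In the S.C. mice it exceeded it by 114-fold and 168-fold. Even in the I.P. mice the muscle isoform thus remained a minor part of the subunit's mRNA.

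**Figure D1:**
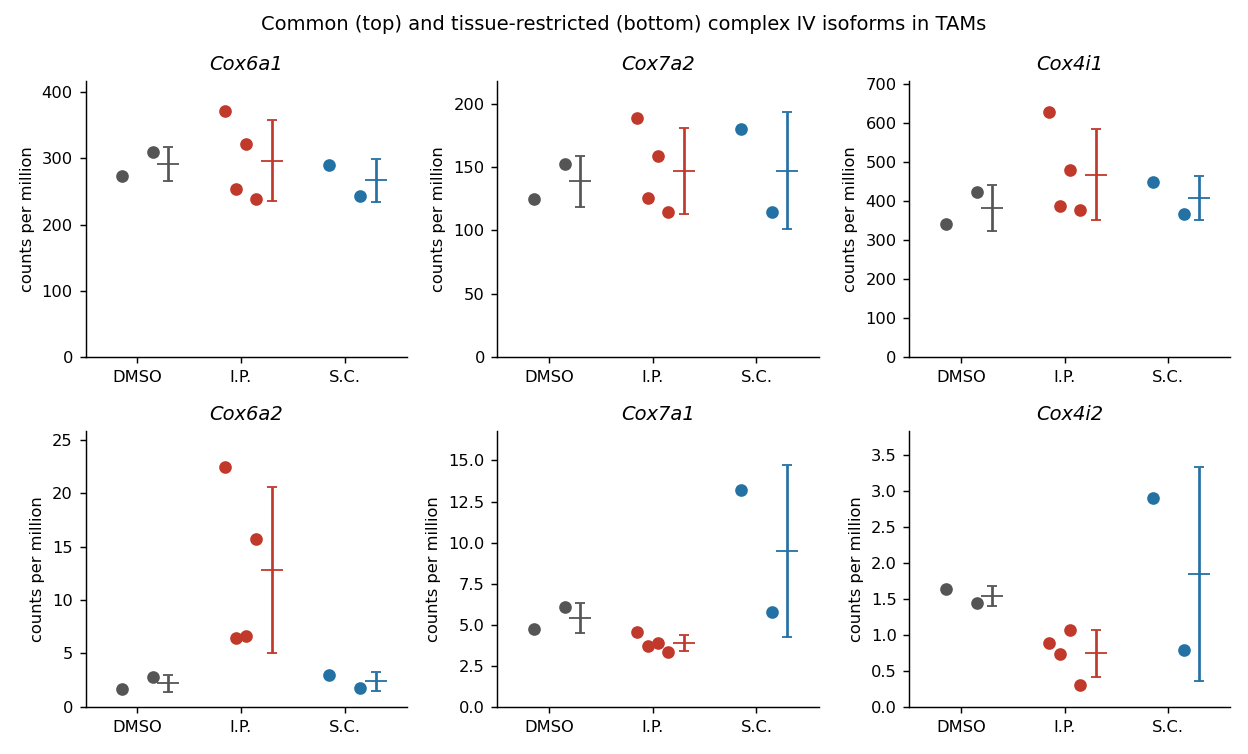
Level (CPM, linear axes from 0) of 3 common complex IV isoforms in the upper row and their tissue-restricted partners in the lower row. Points are mice, the horizontal mark is the group mean and the bar is ± 1 SD (DMSO n = 2, I.P. n = 4, S.C. n = 2). Cox6a2 was 6.42 to 22.4 CPM in I.P. mice and at most 3.03 CPM in the other mice, whereas Cox6a1 overlapped among groups.

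Cox7a1 and Cox4i2, the other tissue-restricted complex IV isoforms among the members, were also low. Cox7a1, the heart and muscle form of subunit 7A, had 4.77 and 6.06 CPM in DMSO mice, 4.55, 3.73, 3.87 and 3.36 CPM in I.P. mice, and 13.2 and 5.78 CPM in S.C. mice. All I.P. mice were below both DMSO mice, and S.C. 1 alone was high. S.C. against I.P., its log2 fold change was 1.32 (SE 0.56) with an adjusted p = 0.569 by edgeR. I.P. against DMSO, it was -0.49 (SE 0.40), and S.C. against DMSO 0.81 (SE 0.71), and neither passed. Without S.C. 1, the S.C. against I.P. value was 0.59 and no longer passed (the lone S.C. mouse assumed to vary like the others), and without I.P. 2, I.P. 3 or I.P. 4 it was 1.30, 1.29 or 1.24 and did not pass either. Cox7a2, the common form, overlapped among the groups at 125 and 153, 115 to 189, and 180 and 115 CPM, and exceeded Cox7a1 per kilobase by 8.14-fold to 24.8-fold.

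Cox4i2, the lung and hypoxia-associated form of subunit 4, had the largest fitted fall in I.P. mice but only 5 to 44 counts per mouse. Its level was 1.63 and 1.44 CPM in DMSO mice, 0.88, 0.73, 1.06 and 0.30 CPM in I.P. mice, and 2.90 and 0.79 CPM in S.C. mice. The I.P. mice were all below the DMSO mice, while the S.C. mice lay on both sides of them. The log2 fold change of I.P. against DMSO was -1.03 (SE 0.73), and its interval of -2.70 to 0.63 included 0. Cox4i1 lay between 341 and 628 CPM in all mice. Of the remaining subunits with paralogs, Cox7a2l, a factor of respiratory supercomplexes, was 64.2 and 67.3 CPM in DMSO mice and 67.5 and 78.0 CPM in S.C. mice. In I.P. mice it was 97.3, 59.0, 68.8 and 63.4 CPM, on both sides of the other mice. Ndufa4, which is named for complex I but is a complex IV subunit, lay between 113 and 234 CPM, and Cox8a, the common form of subunit 8, between 139 and 315 CPM.

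The groups did not overlap for 6 members in I.P. against DMSO, that is 7.5% of 80, against 14.2% of all genes tested. Higher in all I.P. mice were Cox6a2 and Atp5sl. Lower in all I.P. mice were Cox7a1, Cox4i2, Ndufab1, the mitochondrial acyl carrier protein that is also a complex I subunit, and Ndufa12, an accessory complex I subunit. The difference in Ndufab1 was small, from 128 and 130 CPM in DMSO mice to 83.9 to 127 CPM in I.P. mice. The largest fitted rises after Cox6a2 were 0.33 for Atp5sl and 0.31 for Ndufv1, the NADH-binding core subunit of complex I, and neither passed the test. Ndufv1 had 101 and 95.5 CPM in DMSO mice and 155, 100, 114 and 119 CPM in I.P. mice.

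**Figure D2:**
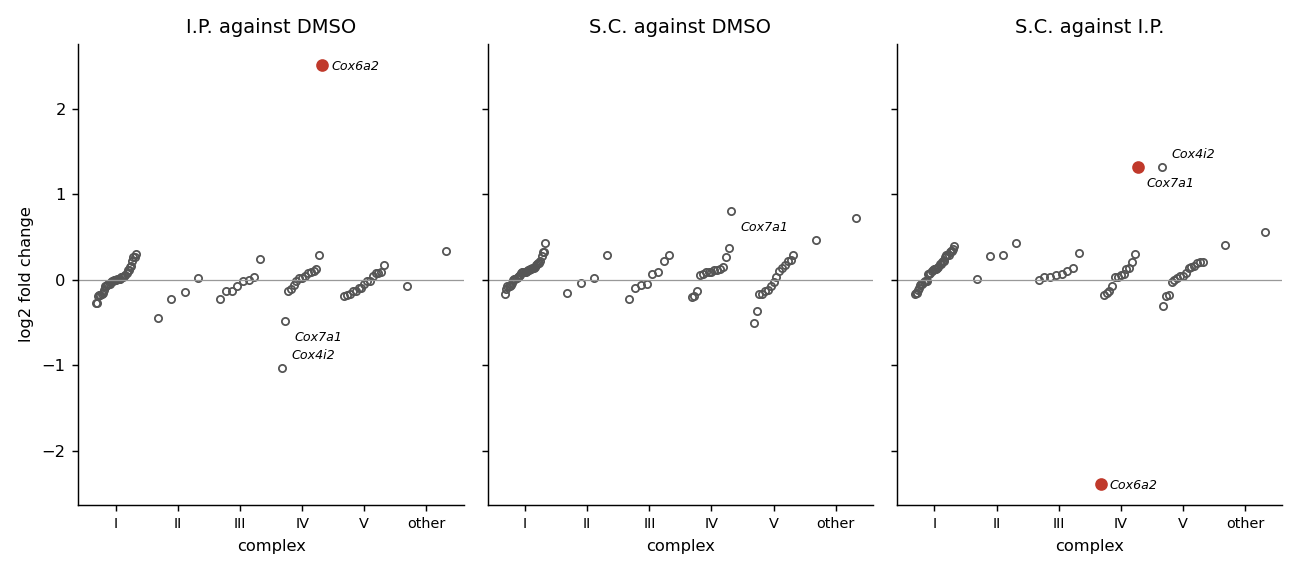
Log2 fold change of each of the 80 members, by complex, in the 3 comparisons. Open circles are members with an unadjusted P of 0.05 or more and filled circles those below it (edgeR). Cox6a2 is filled at 2.52 in I.P. against DMSO and at -2.39 in S.C. against I.P., and the other filled point is Cox7a1 at 1.32. The 2 members that are not subunits are under "other".

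S.C. thiostrepton was compared with the same 2 DMSO mice, so the values below share their controls with those above. No member passed an unadjusted P of 0.05 by edgeR or by DESeq2, against 5.41% of 11680 genes in edgeR. After adjustment edgeR called 0% of genes and DESeq2 called 107, none a member. The median log2 fold change of the members was 0.09, with 55 higher and 25 lower, beside 0.02 for all genes. It rested on single mice, being -0.33 without S.C. 1 and 0.36 without S.C. 2, and it was -0.06 when counts were scaled by library size alone. Within 0.5 on the log2 scale lay 77 of 80 members, compared with 7002 of 11680 genes. With 2 mice against 2, the 95% interval lay inside a 2-fold change for 27 of 80 members, compared with 1121 of 11680 genes. For the other members a 2-fold change was not excluded.

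The largest fitted falls with S.C. treatment were in complex V. Atp5g3, one of 3 genes for the proton-carrying c subunit, had 218 and 475 CPM in DMSO mice and 270 and 217 CPM in S.C. mice. The fold change of -0.51 (SE 0.44) was smaller than the difference between the DMSO mice. Atp5a1, the alpha subunit, had 690 and 839 CPM in DMSO mice and 595 and 594 CPM in S.C. mice, a fold change of -0.36 (SE 0.29) that did not pass. Uqcrc1, a core protein of complex III, had a fold change of -0.22. The other c-subunit genes, Atp5g1 and Atp5g2, had fold changes of -0.07 and -0.12. The largest fitted rises were Cox7a1 (0.81), Atp5sl (0.73) and Atp5s (0.46), and all 3 rested on single S.C. mice. Without S.C. 1 they were 0.08, 1.05 and -1.44, and without S.C. 2 they were 1.26, 0.28 and 1.23. Atp5s was 12.3 and 11.9 CPM in DMSO mice but 28.9 and 4.48 CPM in S.C. mice, on both sides of the controls. The groups did not overlap for 4 members, or 5.0%, against 34.4% of all genes. Higher in S.C. mice were Atp5sl and Cox7a2l, the latter only by 67.5 CPM in S.C. 2 against 67.3 CPM in DMSO 1. Lower were Atp5a1 and Ndufa10.

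Between S.C. and I.P. mice, 2 of 80 members passed an unadjusted P of 0.05, Cox6a2 and Cox7a1, against 8.59% of 12206 genes. Both changed by more than 2-fold. After adjustment edgeR called 0% of genes, whereas DESeq2 called 234 genes with Cox6a2 as the only member (adjusted p = 0.041). Groups did not overlap for 3 members, or 3.75%, against 18.5% of all genes. Cox6a2 and Cox7a1 were among them. The median of the members was 0.10, beside 0.02 for all genes, with 58 higher and 22 lower in S.C. mice, and it was -0.32 without S.C. 1 and 0.38 without S.C. 2. After Cox6a2 the largest fitted falls were Atp5g3 (-0.31) and Atp5g2 (-0.19), and the rises besides Cox7a1 were Cox4i2 (1.33) and Atp5s (0.56). Without S.C. 1 these 2 values were 0.10 and -1.35, and without S.C. 2 they were 1.97 and 1.35. The interval lay inside a 2-fold change for 58 of 80 members, compared with 2548 of 12206 genes.

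By complex, each mouse was scored by the mean log2 CPM of its members. Complex I scored 6.79 ± 0.12 (SD, n = 2) in DMSO, 6.77 ± 0.24 (n = 4) in I.P. and 6.84 ± 0.47 (n = 2) in S.C. mice. Complex III scored 7.51 ± 0.11, 7.46 ± 0.22 and 7.51 ± 0.43. Complex IV scored 6.31 ± 0.28, 6.39 ± 0.30 and 6.38 ± 0.56, and complex V 7.69 ± 0.37, 7.66 ± 0.28 and 7.67 ± 0.40. For these 4 complexes the group means thus differed by less than the SD within the groups. Complex II scored 8.12 ± 0.22, 7.91 ± 0.08 and 8.11 ± 0.30, and its 3 groups also overlapped.

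A list of 20 core and large subunits was looked at apart from the others. The catalytic subunits of complex IV are encoded in mitochondrial DNA and were not analysed here. Of these 20 members, none passed the test in any of the 3 comparisons, and all 20 lay within 0.5 on the log2 scale in each. Their medians were -0.12 for I.P. against DMSO, -0.03 for S.C. against DMSO and 0.02 for S.C. against I.P. In complex I, the iron-sulfur subunits Ndufs7 and Ndufs8 had I.P. fold changes of 0.03 and 0.16. In complex III the Rieske protein Uqcrfs1 had -0.13, and in complex IV the nuclear-encoded subunits Cox5a and Cox5b had -0.11 and 0.09. In ATP synthase Atp5b had -0.13 and the gamma subunit Atp5c1 -0.02. For Atp5b the levels were 1307 and 1681 CPM in DMSO mice, 1055, 1621, 1562 and 1246 CPM in I.P. mice, and 1377 and 1274 CPM in S.C. mice, overlapping throughout.

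**Figure D3:**
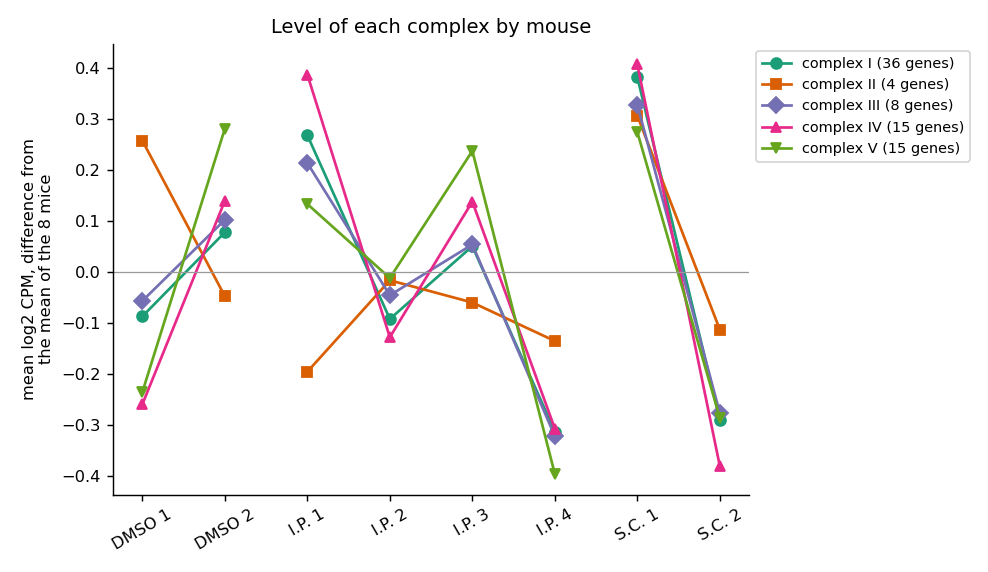
Mean log2 CPM of the members of each complex in each mouse, shown as the difference from the mean of the 8 mice. Lines join mice of the same group and have no time order. Complexes I, III, IV and V rise and fall together from mouse to mouse, with S.C. 1 high and S.C. 2 and I.P. 4 low.

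Most members spread more among mice of the same group than their group means differed. In S.C. 1, 73 of 80 members were above their own 8-mouse mean of log2 CPM, whereas in S.C. 2 only 7 were. In the I.P. mice the numbers were 67, 18, 59 and 5, and in the DMSO mice 22 and 63. S.C. 1 was higher than S.C. 2 in 76 of 80 members. The difference between those 2 mice exceeded that between S.C. and DMSO means for 75 members. For 78 members the I.P. mice spanned more than their mean differed from DMSO. A spread of single mice tends to exceed a difference of means even without an effect. The same counts were not made over all genes, so they do not set the members apart. S.C. 1 was the highest mouse for 41 members and I.P. 1 for 24. I.P. 4 was the lowest for 34 and S.C. 2 for 31. The first principal component of the members over mice held 57.5% of their variance. For Uqcr10, a small complex III subunit, the levels were 115 and 157 CPM in DMSO mice, 182, 129, 147 and 99.4 CPM in I.P. mice, and 177 and 108 CPM in S.C. mice, which shows the pattern.

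A few members of long transcripts went against the others. Sdha, the flavoprotein of complex II, was 555 and 390 CPM in DMSO mice, 177, 429, 386 and 402 CPM in I.P. mice, and 376 and 545 CPM in S.C. mice. It was lowest in I.P. 1, where most members were high. Its fold change of I.P. against DMSO was -0.44 (SE 0.36), which did not pass and was the largest fall in complex II. Ndufs1, the largest complex I subunit, was 119 and 114 CPM in DMSO mice, 58.7, 121, 97.6 and 138 CPM in I.P. mice, and 106 and 142 CPM in S.C. mice. It too was lowest in I.P. 1 and was high in I.P. 4 and S.C. 2. The other complex II subunits did not share the low value of Sdha in I.P. 1, where Sdhb had 389 CPM, Sdhd 303 and Sdhc 124.

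Because most of these subunits are small proteins with short mRNAs, members were set beside other genes of the same transcript length. For the 32 members under 700 bases, the median difference from the 8-mouse mean on the log2 scale was -0.23 and 0.18 in DMSO mice, 0.38, -0.12, 0.15 and -0.43 in I.P. mice, and 0.40 and -0.33 in S.C. mice. For 234 other genes of that length it was -0.27 and 0.21, then 0.42, -0.10, 0.23 and -0.37, and then 0.38 and -0.30. The pattern over mice was therefore shared with other short transcripts. In the 16 members of 1500 bases and more, the median differences ranged from -0.21 to 0.14, and I.P. 4 and S.C. 2 were again the lowest at -0.20 and -0.21. For the 9761 other genes of that length the same mice were at 0.15 and 0.06. The part of transcript length in the members' pattern was not tested.

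**Figure D4:**
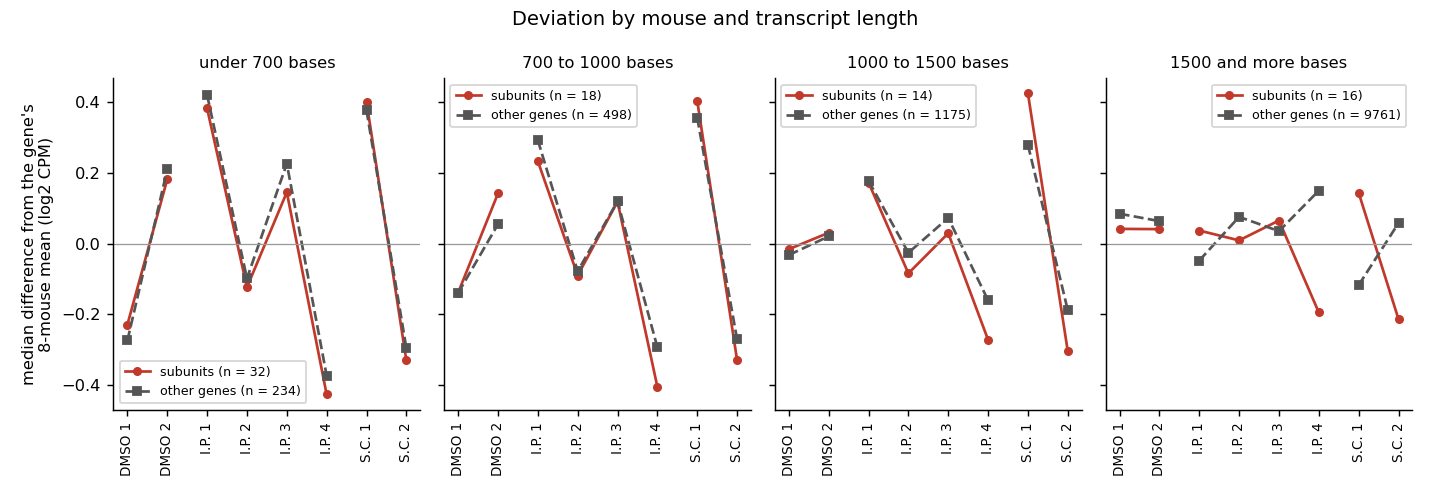
Median difference from each gene's 8-mouse mean (log2 CPM) by mouse in 4 classes of transcript length, for respiratory chain members (solid) and all other expressed genes (dashed). Lines join mice of the same group and have no time order. Under 700 bases both lines are high in I.P. 1 and S.C. 1 and low in I.P. 4 and S.C. 2.

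The promoters of the members were read from RefSeq (GRCm38.p6) for letters that known regulators of respiratory chain genes bind. These regulators are NRF1, GABP (also called NRF2), YY1 and the estrogen-related receptors (ERR). Windows of 250 bases before to 50 after the start were given for 67 members, in 73 windows, and were searched on both strands. The NRF1 core GCATGCGC was in 10 of the 73 windows (13.7%), compared with 2.71% of all 32851 windows. The YY1 letters AAGATGGCG were in 9 (12.3%), compared with 1.40%, and the GABP letters CCGGAAGT in 5 (6.85%), compared with 3.89%. The ERR letters TCAAGGTCA were in 2 (2.74%), compared with 0.423%. A match describes the letters only. The NRF1 core overlaps itself on the opposite strand in the 10-base run GCGCATGCGC, which was counted once per window.

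To show the letters found, 3 promoters with a match and that of Cox7a1 without one are given 5′ to 3′ on the gene's strand, with matches in capitals and annotated exons of coding transcripts left out. Cox6a1 is at chr5:115348982-115349138 (minus), Ndufa11 at chr17:56717686-56717761 (plus), Uqcr11 at chr10:80406831-80407001 (minus) and Cox7a1 at chr7:30183991-30184143 (plus). Cox6a1 and Ndufa11 hold the NRF1 run, which begins 162 and 60 bases before the start, and Uqcr11 holds a GABP match 66 bases before it. Uqcr11 also has the NRF1 core beginning 4 bases before the start, beyond the stretch given.
Cox6a1: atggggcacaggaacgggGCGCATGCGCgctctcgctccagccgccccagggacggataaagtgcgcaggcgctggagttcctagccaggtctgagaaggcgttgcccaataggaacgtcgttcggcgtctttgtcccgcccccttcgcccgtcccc
Ndufa11: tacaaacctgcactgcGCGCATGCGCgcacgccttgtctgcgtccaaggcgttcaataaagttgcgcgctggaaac
Uqcr11: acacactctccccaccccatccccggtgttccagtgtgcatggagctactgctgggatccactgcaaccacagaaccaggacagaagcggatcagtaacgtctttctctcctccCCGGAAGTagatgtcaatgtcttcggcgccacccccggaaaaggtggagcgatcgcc
Cox7a1: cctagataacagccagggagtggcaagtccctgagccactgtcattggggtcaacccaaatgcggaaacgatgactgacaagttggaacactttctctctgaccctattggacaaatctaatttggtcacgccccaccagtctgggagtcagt

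Shorter stretches around the matches of 6 further members show how far the letters around them vary. The NRF1 core is in capitals for Atp5g2, Atp5k and Sdhb, where it begins 42, 50 and 54 bases before the start. The YY1 letters are in capitals for Ndufc1, Atp5j2 and Ndufs7, where they lie shortly after the start.
Atp5g2: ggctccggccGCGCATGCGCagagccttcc
Atp5k: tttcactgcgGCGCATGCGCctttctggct
Sdhb: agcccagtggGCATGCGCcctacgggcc
Ndufc1: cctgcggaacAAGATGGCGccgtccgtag
Atp5j2: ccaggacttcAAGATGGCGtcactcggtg
Ndufs7: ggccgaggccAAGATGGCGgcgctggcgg

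Fold changes of members with and without a match are given without a test. The 10 members with the NRF1 core had a median I.P. log2 fold change of 0.02, and the 57 without it -0.02. For S.C. against DMSO the medians were 0.03 and 0.09. With and without the YY1 letters the I.P. medians were -0.012 and -0.004 and the S.C. medians 0.086 and 0.094. For the 5 members with the GABP letters they were 0.08 (I.P.) and 0.10 (S.C.), beside -0.01 and 0.09 for the 62 without. For the 2 members with the ERR letters they were -0.16 and -0.33, beside -0.004 and 0.094 for the 65 without. The 13 members without a promoter entry include Cox6a2, Cox4i2, Cox4i1, Atp5a1, Ndufs1, Uqcrc2, Uqcrb, Uqcrq, Sdhc, Cox6c, Ndufa2 and Ndufb9.

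Genes that serve the respiratory chain were set beside the members, from lists by function. Of 43 assembly factors tested, 1 was lower in I.P. mice, Atpaf2, an ATP synthase assembly factor (-0.58, SE 0.23, edgeR adjusted p = 0.980). In S.C. against DMSO 1 was lower, Acad9, a complex I assembly factor (-1.24, SE 0.38, edgeR adjusted p = 0.747). Acad9 had 49.6 and 40.4 CPM in DMSO mice and 17.1 and 20.8 CPM in S.C. mice. In S.C. against I.P. 2 were lower, Acad9 and Cox10, which makes heme for complex IV (-1.05, SE 0.36, edgeR adjusted p = 0.459). In each case the call was by unadjusted P. In the 3 comparisons, in this order, 3.43%, 5.41% and 8.59% of all genes tested passed that threshold.

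Of 16 genes for coenzyme Q, cytochrome c and the electron transfer flavoprotein, none passed in I.P. against DMSO and 2 were higher in S.C. mice. Over all genes tested, 3.43% and 5.41% passed in these 2 comparisons. Adck3, a kinase-like protein of coenzyme Q synthesis, had 5.92 and 4.04 CPM in DMSO mice and 20.6 and 20.4 CPM in S.C. mice (2.04, SE 0.53, edgeR adjusted p = 0.747). Coq10b, a coenzyme Q binding protein, had a fold change of 1.29 (SE 0.45, edgeR adjusted p = 0.842). In S.C. against I.P., where 8.59% of all genes tested passed, this list had 2 higher and 1 lower. Of 18 regulators of mitochondrial biogenesis and mitochondrial DNA, none passed against DMSO by either route, and 1 was lower in S.C. than in I.P. mice. This was Polrmt, the mitochondrial RNA polymerase, at 13.7 to 22.1 CPM in I.P. mice and 7.91 and 3.54 CPM in S.C. mice (-1.70, SE 0.49, edgeR adjusted p = 0.374).

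Of 20 genes of pyruvate entry and the TCA cycle, none passed in any comparison, although 17 had a fold change below 0 in I.P. against DMSO with a median of -0.25. Of 23 import and chaperone genes none passed in any comparison, and all 23 lay within 0.5 on the log2 scale in I.P. mice. Of 19 glycolysis and hypoxia genes, 1 passed in each comparison, beside 3.43%, 5.41% and 8.59% of all genes tested. Bnip3, a hypoxia-induced mitophagy receptor, was lower in I.P. than in DMSO mice (-0.50, SE 0.21, edgeR adjusted p = 0.980). Vegfa was higher in S.C. mice than in DMSO mice (1.61, SE 0.35, edgeR adjusted p = 0.747) and than in I.P. mice (1.28, SE 0.45, edgeR adjusted p = 0.484). The 3 subunits that the symbols of the members do not cover, which include Cyc1 of complex III and Usmg5 of ATP synthase, did not pass in any comparison. Of 80 cytosolic ribosomal protein genes, another group of short transcripts, none passed in any comparison, and their medians were 0.14, -0.12 and -0.25 in I.P. against DMSO, S.C. against DMSO and S.C. against I.P.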

How the data were processed

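TAM RNA-seq libraries of 2 DMSO, 4 I.P. and 2 S.C. mice were grouped by sample label. The authors deposited whole-number counts per gene symbol without normalization. The study's methods name mm10, bowtie2 and RSEM, while the submitters' processing notes name TopHat2 and edgeR, so the aligner is uncertain. The rule for members and all gene lists were chosen with earlier results of these data known, and length classes and the genes beside Cox6a2 were looked at after seeing the data.

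Tests used edgeR 4.0.16 and, as an alternative, DESeq2 1.42.0 in R 4.3.3. Genes were kept by filterByExpr (minimum count 10, minimum total 15), which kept all 80 members in each comparison, and TMM set the scale. Comparisons were fitted separately by the two-sided quasi-likelihood test, and P values were adjusted over all genes tested. The SE is the log2 fold change divided by the square root of F. Log2 CPM used a prior count of 2. With these depths 3 counts are 0.171 to 0.212 CPM. Scripts were tested on simulated data. Each library has its own label and differed from the others, and P values rest on the spread between these libraries. Lengths and positions are from GENCODE vM21 (GRCm38, the assembly of mm10), as the median length of transcripts with a RefSeq record. Mitochondrially encoded subunits were not analysed here, and 1 member is not reported by name here. Named members were the core subunits, isoform groups, members with an unadjusted P under 0.05, the 3 largest rises and 3 largest falls per comparison and the highest and lowest of each complex, and for other lists the 2 smallest P values. Mice with the same number did not deviate together (correlations of -0.129 to 0.071), so numbers were not taken as pairs. Deviations were from the group mean, so the mice of a group of 2 mirror each other. The value of -0.129 for DMSO with S.C. is therefore the same for both numbers by construction.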

Additional observations from a re-analysis of the deposited data

Results flagged for a closer look

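Cox6a2 differed between S.C. and I.P. mice, with a log2 difference of -2.39 for S.C. against I.P. (edgeR adjusted p = 0.399). It was lower in 2 of 2 S.C. mice than in every I.P. mouse. Cox7a1 differed the other way, by 1.32 (edgeR adjusted p = 0.569). Both passed an unadjusted P of 0.05, which is 2 of 80 members beside 8.59% of all genes tested.

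Sdha in I.P. 1 stood apart from the other I.P. mice, at 177 CPM beside 386 to 429 CPM, with a gap of 0.881 of the group's range on the log2 scale. Of 17 members and scores examined in this way it was the only such case, and chance gives about 1 in 20 groups. The log2 fold change of Sdha against DMSO was -0.44, and it was -0.22 without I.P. 1, -0.17 without DMSO 1 and -0.68 without DMSO 2.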

How the results depend on the processing

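I.P. against DMSO, Cox6a2 passed an unadjusted P of 0.05 under all 15 alternatives (log2 fold change 2.10 to 2.96, P of 3.6e-05 to 0.038), and 1 member passed under each. The median of the members ran from -0.14 to 0.16 when 1 mouse was left out. S.C. against DMSO, the number of members that passed was 0 to 3 and the median -0.33 to 0.36 when 1 mouse was left out. It was 3 without either S.C. mouse, where 30.4% (without S.C. 1) and 34.0% (without S.C. 2) of all genes passed, and Cox7a1 passed without S.C. 2, Atp5sl without S.C. 1 and Atp5s without either. S.C. against I.P., they were 1 to 4 and -0.32 to 0.38, and the 4 came without S.C. 2, where 18.2% of all genes passed. In that comparison 1 member instead of 2 passed with no filter on low counts, with library size only and with the replicate number as a block, as Cox7a1 then missed the threshold (unadjusted edgeR P of 0.0595, 0.0574 and 0.377). Cox7a1 also missed it without I.P. 2, I.P. 3, I.P. 4 or S.C. 1 (P of 0.095 to 0.325). Cox6a2 missed it narrowly without S.C. 2.

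Leaving out 1 mouse, the fold change of Atp5s ran from -1.44 to 1.23 in S.C. against DMSO and from -1.35 to 1.35 in S.C. against I.P., below 0 without S.C. 1. With the replicate block its values were -0.076 and -0.11, and -0.072 with the numbers crossed. In S.C. against DMSO, Uqcrc1 ran from -0.46 to 0.033 and was above 0 without DMSO 1, and Atp5g3 ran from -0.97 to 0.15 and was above 0 without DMSO 2. In S.C. against I.P., Atp5g2 ran from -0.53 to 0.083 and was above 0 without S.C. 2. Among the members named, the replicate block changed no other call. Over all genes it moved the number with an unadjusted P under 0.05 from 418, 632 and 1049 to 334, 431 and 443, and edgeR's adjusted calls from 0 in each to 0, 19 and 1. Of the genes of other lists that passed, it kept 0 of 2 (Atpaf2 and Bnip3 missed), 4 of 4 and 3 of 7 (Acad9 and Cox10 were among the 4 that missed). With the block, the medians were 0.09, 0.05 and -0.04 in the 3 comparisons, and crossing the numbers in S.C. against DMSO, an alternative chosen after seeing the data, left 0 members and a median of 0.05. With library size only the medians were -0.09, -0.06 and 0.01. Leaving out Atp5s and Atp5sl left the number of members that passed as it was. The causes of these changes were not tested. By adjusted p, DESeq2 called 19, 107 and 234 genes and edgeR's likelihood ratio test 10, 179 and 265, where its quasi-likelihood test called 0. The latter called 10 genes in S.C. against DMSO with no filter, 4 there and 2 in S.C. against I.P. with all 3 groups in 1 fit, and up to 2407 without 1 of the S.C. mice. Low counts limit the values of Cox4i2, Cox7a1 and Cox6a2, and 2 mice in each of the DMSO and S.C. groups limit every comparison.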
